A study of Mus musculus with 4 samples.

Results

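The genes described here encode subunits of complexes I, III and IV of the mitochondrial respiratory chain. They are all genes whose symbol starts with Nduf, Uqcr, Cox4, Cox5, Cox6, Cox7 or Cox8 and that had at least 1 probe set annotated to that symbol alone. This rule uses names only and took 69 of the 18193 genes named on the array, with 139 of its 34945 probe sets of a single symbol. By name 44 genes with 88 probe sets belong to complex I, 8 genes with 16 probe sets to complex III and 17 genes with 35 probe sets to complex IV. Within complex I they comprise 6 genes of the catalytic core, 28 accessory subunits, 8 assembly factors of the Ndufaf series, and Ndufa4 with its paralogue Ndufa4l2, whose names predate the finding of the NDUFA4 protein in complex IV.

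Complex I oxidises NADH and passes its electrons to ubiquinone, complex III passes them on to cytochrome c, and complex IV hands them to oxygen, while all of these complexes pump protons that drive ATP synthase. A few subunits are encoded in mitochondrial DNA and the others, including all genes counted here, in the nucleus. Dendritic cells (DCs) present antigen to T cells and mature when they meet microbial products. Mouse DCs stimulated with lipopolysaccharide (LPS), a component of the bacterial outer membrane sensed by Toll-like receptor 4, are known to turn toward glycolysis over the following hours.

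RNA came from DCs grown from bone marrow for 6 to 7 days with the growth factor GM-CSF at 20 ng/mL, and enriched on beads for the integrin CD11c. Donor mice were wild type (WT) or lacked LXRα together with LXRβ, the liver X receptors, nuclear receptors that sense oxysterols and control lipid genes (LXR-DKO). The strain is given as C57/BL6 for all samples; the number of mice and of backcrosses is not given in the sources used here, and the labels name no cell type or Cre line to which the deletion is limited. Cells of each genotype were then kept for 24 h with GM-CSF at 10 ng/mL, alone as the control or with LPS at 100 ng/mL, which the labels call immature and mature DCs. This gave 4 groups, WT control, WT LPS, LXR-DKO control and LXR-DKO LPS, with 1 array each. With 1 array per group no test of a difference was made, and the error given is the spread between probe sets of the same gene on the same arrays. Each array measured a whole culture, so fewer cells of a type and less RNA per cell cannot be told apart.

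Values are signals on a linear scale, as deposited. On every array the mean signal was 200.0 once the top and bottom 2% of values were set aside. Where 4 signals follow each other without labels, their order is WT control, WT LPS, LXR-DKO control, LXR-DKO LPS. A signal under 28.9, the median over all arrays, was taken as too dim to measure. Each gene is given by its brightest probe set, and a ratio in which 1 signal was set to 28.9 is written as at least that size. Signals of different genes depend on their probes and are not compared with each other. Of the 69 genes, 62 reached 28.9 on all 4 arrays and 46 had a mean signal of at least 1000. Cox4i2, Cox6b2, Cox7a1 and Ndufa4l2 reached it on some arrays, and Cox7b2, Cox8b and Ndufb4 on none.

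The arrays of the 2 genotypes differed beyond the genes of interest. Nr1h3, the gene of LXRα, read 108.6 (control) and 54.5 (LPS) in WT, and 40.4 and 27.0 in LXR-DKO, and where its probe set lies relative to the deletion is not given in the sources used here; Nr1h2, the gene of LXRβ, was not analysed here. The 18 control probe sets for hybridisation were lower on the LXR-DKO arrays by log2 ratios of -0.23 without LPS and -0.32 with LPS. The 24 control probe sets for poly-A RNA, which is added before labelling, were lower by -0.95 and -0.60. Whether these controls were added in equal amounts is not given in the sources used here. The ratio of 3′ to 5′ signal lay between 0.757 and 0.842 for Gapdh and between 1.11 and 1.28 for Actb over the 4 arrays. The defining DC marker Itgax was above 28.9 on all arrays, at 5012.2, 6093.0, 4404.5 and 3848.1, and so lower in LXR-DKO. Flt3 was below 28.9 on all but the LXR-DKO LPS array. Other DC markers went the other way. At least 2-fold higher in LXR-DKO were 6 of 10 measured DC markers without LPS and 8 of 11 with LPS, and 0 were 2-fold lower.

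Without LPS most respiratory chain genes read lower on the LXR-DKO array than on the WT array, on the deposited scale. Of 64 measured genes, 52 had a log2 ratio below 0 and 12 above 0, and the median was -0.36, or 0.57 when arrays were scaled to the poly-A controls. The share below 0 was 81.25%, against 47.3% of 11728 genes measured. Relative to the median of all genes above 28.9 on every array, which no linear scaling of whole arrays alters by much, the members' median lay at -0.40, and at -0.29 after quantile normalization. Bright genes as a class were also lower: genes with a mean signal of at least 1000 had a median of -0.17 with 61.5% below 0, while the 46 members this bright had a median of -0.41 with 40 below 0. With LPS the genotype difference was of the same direction, with a median of -0.51, or 0.09 when scaled to the poly-A controls, and 56 of 66 genes were below 0. That share was 84.8%, against 41.7% of all 12014 genes measured and 61.9% of bright genes. The members' median then lay at -0.64 relative to all genes, or -0.39 after quantile normalization, and at -0.28 relative to bright genes, and without LPS at -0.18 relative to bright genes.

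Most individual differences were small. Without LPS, 3 members were at least 2-fold lower in LXR-DKO, which 9.28% of all genes were, and 1 was at least 2-fold higher, against 12.7% of all genes. At a 1.5-fold limit 14 members were lower, against 18.6% of all genes, and 3 were higher, against 23.6%. With LPS 5 members were at least 2-fold lower (8.76% of all genes) and 1 at least 2-fold higher (17.8%), and at 1.5-fold 25 were lower (18.0%) and 1 higher (29.9%). Members called lower by 2-fold were thus no larger a share than among all genes. At 1.5-fold the 14 of 64 measured members lower without LPS were near the share of all genes. With LPS the 25 of 66 lower were a larger share than the 18.0% of all genes. Among genes with a mean signal of at least 1000, 605 of 2007 were 1.5-fold lower with LPS and 517 of 2007 without LPS. Of the 46 members this bright, 19 were 1.5-fold lower with LPS and 11 without LPS. The shift was one of many ratios of less than 2-fold on the same side. The log2 ratio of 34 of 62 members without LPS, and of 33 with LPS, was no larger than the SD between probe sets of a gene, 0.44 and 0.53 over 4362 genes. Among 34 members with several probe sets that SD was 0.29 and 0.28.

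In all, 48 of the 62 members read lower on both LXR-DKO arrays than on both WT arrays, which held for 30.3% of all genes and for 48.2% of bright genes. The reverse order held for 6 members, Ndufa6, Ndufaf7, Ndufaf8, Ndufb10, Ndufb11 and Cox7a2l, against 37.6% of all genes and 25.8% of bright genes. By complex the lower order held for 31 of 42 genes of complex I, 8 of 8 of complex III and 9 of 12 of complex IV. The WT LPS array was the highest of the 4 for 35 members and the WT control array for 19. LXR-DKO LPS was the lowest for 35 members and LXR-DKO control for 17. Any ratio between -0.95 and 0 without LPS, or between -0.60 and 0 with LPS, would be above 0 on the scale of the poly-A controls.

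**Figure D1:**
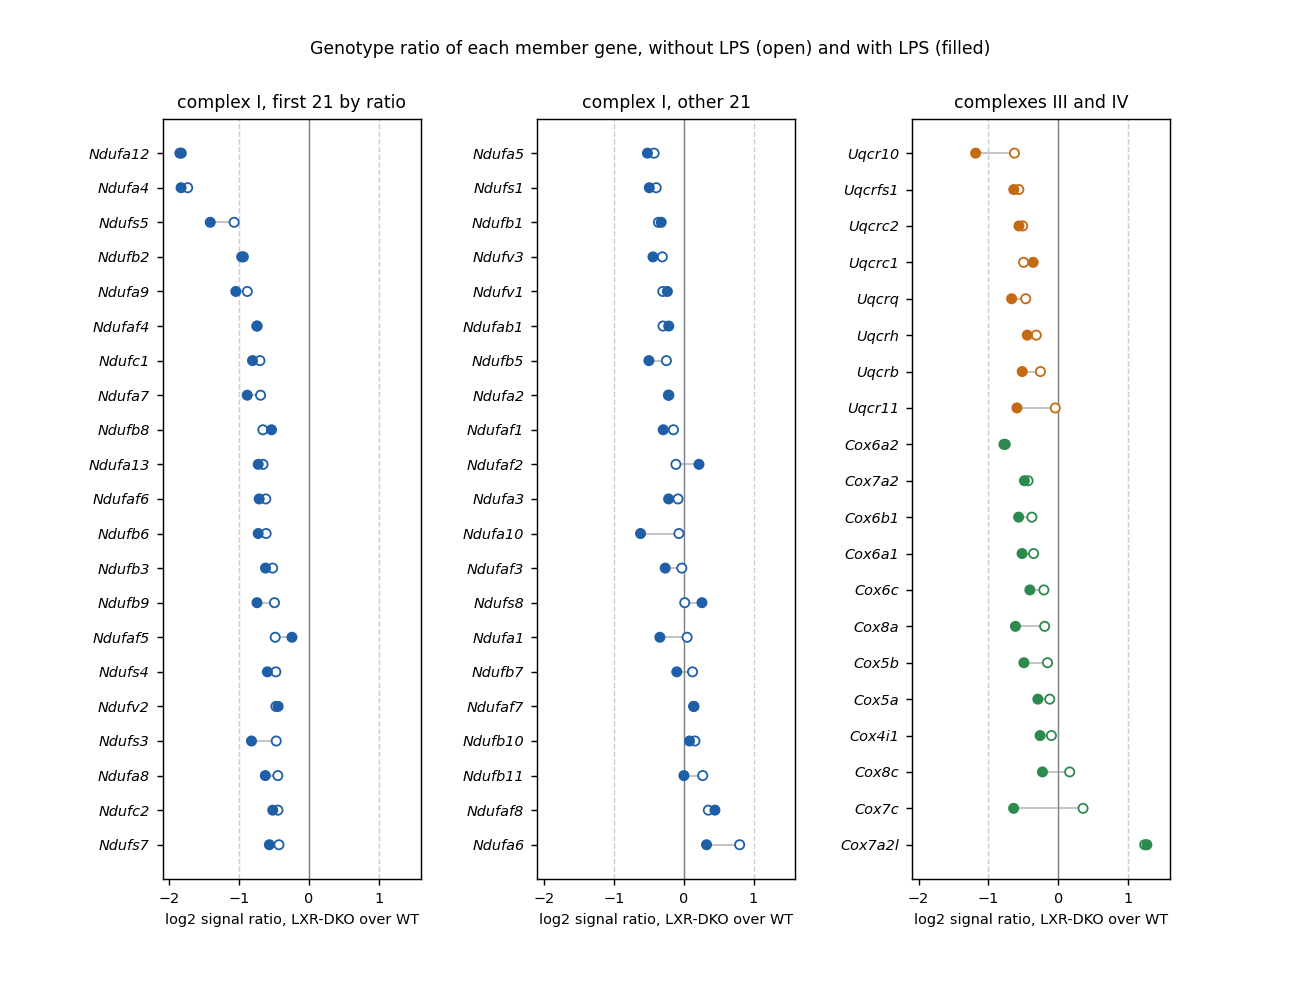
Log2 signal ratio of LXR-DKO over WT for the 62 member genes at or above 28.9 on all 4 arrays, 1 row per gene, ordered by the ratio without LPS; open points are without LPS, filled points with LPS, each from 1 array over 1 array. Most points lie left of 0 on the deposited scale, where Ndufa12 and Ndufa4 are farthest left and Cox7a2l farthest right, and the members' medians of -0.36 and -0.51 become 0.57 and 0.09 on the scale of the poly-A controls.

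Promoter sequences are shown for the members that differed most between genotypes without LPS. They are also shown for 2 members with the core site of NRF1, a known regulator of respiratory genes, before the start. Other members with a motif are counted below but not printed. They come from RefSeq on the mouse build GRCm38.p6. A window of 300 bases, 250 before the start and 50 after it, was given for 56 of the 69 members, in 58 windows. Each sequence is the 250 bases up to the transcription start, 5′ to 3′ on the gene's strand. The first 4 belong to the genes at least 2-fold different and hold none of the motifs searched: Ndufa12 at chr10:94198785-94199034 (plus strand), Ndufa4 at chr6:11907451-11907700 (minus), Ndufs5 at chr4:123718187-123718436 (minus) and Cox7a2l at chr17:83514334-83514583 (minus).
Ndufa12: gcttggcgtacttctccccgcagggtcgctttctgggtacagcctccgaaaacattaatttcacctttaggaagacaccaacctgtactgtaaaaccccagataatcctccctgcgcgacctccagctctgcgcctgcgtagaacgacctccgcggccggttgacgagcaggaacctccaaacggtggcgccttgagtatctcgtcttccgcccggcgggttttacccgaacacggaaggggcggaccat
Ndufa4: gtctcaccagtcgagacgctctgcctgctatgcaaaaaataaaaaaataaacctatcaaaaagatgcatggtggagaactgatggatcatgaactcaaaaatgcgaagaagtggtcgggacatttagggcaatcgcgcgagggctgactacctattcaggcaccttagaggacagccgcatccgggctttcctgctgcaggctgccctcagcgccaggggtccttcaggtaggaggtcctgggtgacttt
Ndufs5: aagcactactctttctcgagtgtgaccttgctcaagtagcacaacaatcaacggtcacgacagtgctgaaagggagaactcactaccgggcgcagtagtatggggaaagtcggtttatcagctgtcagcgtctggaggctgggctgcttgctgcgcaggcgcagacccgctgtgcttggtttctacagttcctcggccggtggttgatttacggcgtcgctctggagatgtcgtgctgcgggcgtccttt
Cox7a2l: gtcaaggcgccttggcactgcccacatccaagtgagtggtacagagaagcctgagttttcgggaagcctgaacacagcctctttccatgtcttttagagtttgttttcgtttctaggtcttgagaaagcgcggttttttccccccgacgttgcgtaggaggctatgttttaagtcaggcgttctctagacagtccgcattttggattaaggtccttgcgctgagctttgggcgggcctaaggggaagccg
The other 2, Cox6a1 at chr5:115348959-115349208 (minus) and Ndufaf4 at chr4:24897833-24898082 (plus), hold the palindromic core of the NRF1 site, a run of 10 bases in capitals, 162 and 113 bases before the start. In Cox6a1 the capitals also mark CTTCCGG, the reverse complement of the ETS core bound by GABP, 16 bases before the start.
Cox6a1: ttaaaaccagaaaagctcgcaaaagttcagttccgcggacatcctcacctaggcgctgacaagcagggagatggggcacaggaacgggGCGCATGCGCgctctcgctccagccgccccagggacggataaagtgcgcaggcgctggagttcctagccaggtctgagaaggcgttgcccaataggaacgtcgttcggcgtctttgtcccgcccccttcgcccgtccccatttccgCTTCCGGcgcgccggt
Ndufaf4: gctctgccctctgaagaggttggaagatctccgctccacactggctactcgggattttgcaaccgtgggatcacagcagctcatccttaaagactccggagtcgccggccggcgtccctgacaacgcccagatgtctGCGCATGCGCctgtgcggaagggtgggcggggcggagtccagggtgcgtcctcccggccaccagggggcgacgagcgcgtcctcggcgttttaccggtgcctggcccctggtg
Over both strands, the NRF1 core was in 4 of 58 member windows, 6.90%, against 0.971% of all 32851 windows; the others were Ndufaf5 and Uqcrc1, where it lies after the start. A shorter form of it, GCATGCGC, which the core contains, was in 12.1% of member windows against 2.71%. The GABP core, CCGGAAG, was in 19.0% against 8.86%. The YY1 core, AAGATGGC, was in 12.1% against 2.75%. The site of the oestrogen-related receptors, TCAAGGTCA, was in 0 member windows and 0.423% of all. Among the members with the NRF1 core, the genotype ratio on control arrays was -0.35 for Cox6a1, -0.75 for Ndufaf4, -0.49 for Ndufaf5 and -0.50 for Uqcrc1, within the range of the other members. These matches describe letters in the sequence and were not measured as bound sites.

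The catalytic core of complex I carries the flavin and the iron-sulphur clusters that lead electrons from NADH to ubiquinone. Its genotype ratio had a median of -0.41 on control arrays and -0.47 on LPS arrays, with 5 of 6 genes below 0 each time. Ndufs3, a subunit close to the quinone site, read 1843.0 (control) and 1917.0 (LPS) in WT, and 1329.6 and 1081.7 in LXR-DKO. Both LXR-DKO arrays were thus below both WT arrays, at log2 ratios of -0.47 and -0.83. Ndufv1, which binds NADH and the flavin, differed less, at -0.30 and -0.23. Ndufs1, Ndufs7 and Ndufv2, all iron-sulphur subunits, lay between -0.39 and -0.48 without LPS and between -0.44 and -0.57 with LPS. Ndufs8, another iron-sulphur subunit, was the exception with 0.01 and 0.26.

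Accessory subunits surround that core and stabilise the complex. Of 27 measured, 22 were below 0 without LPS and 24 with LPS, with medians of -0.45 and -0.54. Ndufa12, which sits on the matrix arm, had the lowest ratio of all members: 3231.0 (control) and 3153.6 (LPS) in WT, and 908.4 and 874.1 in LXR-DKO. The genotypes did not overlap, the arrays with and without LPS were alike, and LXR-DKO was 3.56-fold lower without LPS and 3.61-fold lower with LPS. The size depended on the probe set: the 2 other bright probe sets of Ndufa12 gave log2 ratios of -1.15 and -0.45 without LPS, against -1.83 for the brightest. All 3 carry a name suffix for probes that may match other transcripts, and the remaining, dim probe set, at 18.8 to 35.4, gave 0.26 with LPS.

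Ndufs5, an accessory subunit on the intermembrane-space side, read 1563.6 (control) and 2043.6 (LPS) in WT, and 742.7 and 765.7 in LXR-DKO. It was 2.11-fold lower in LXR-DKO without LPS and 2.67-fold lower with LPS, and the WT LPS array was the highest of the 4. Ndufa9, at the joint of the matrix and membrane arms, read 2639.5, 2606.9, 1428.8 and 1259.3 in the same order, 1.85-fold and 2.07-fold lower in LXR-DKO. Ndufs5 and Ndufa9 each have a single probe set, so their ratios have no check within the arrays. Ndufb2 of the membrane arm, at 1.92-fold and 1.95-fold lower, was just short of the 2-fold limit. Its second bright probe set gave log2 ratios of -0.96 and -1.04, close to -0.94 and -0.97 for the brightest.

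Ndufa6, which binds the mitochondrial acyl carrier protein, was the accessory subunit with the highest ratio. It read 1137.8 (control) and 1108.2 (LPS) in WT, and 1982.7 and 1390.1 in LXR-DKO, so the genotypes did not overlap, with LXR-DKO 1.74-fold higher without LPS and 1.25-fold higher with LPS. Ndufab1, the acyl carrier protein itself, was lower by log2 ratios of -0.30 and -0.21. Ndufs4, which helps to attach the NADH-oxidising module, read 861.7, 1116.4, 619.2 and 737.7, or -0.48 and -0.60, but a dim probe set of the same gene, at 47.8 to 81.5, gave 0.77 and 0.21. Ndufa2, at -0.22 and -0.21, and Ndufa1, at 0.05 and -0.34, lay nearer to 0. The remaining accessory subunits ranged from -0.70 for Ndufc1 to 0.27 for Ndufb11 without LPS, and from -0.89 for Ndufa7 to 0.08 for Ndufb10 with LPS.

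The assembly factors build complex I without being part of it, and their genotype medians were -0.13 and -0.26, with 6 and 5 of 8 below 0. Ndufaf4, which works on the quinone module with Ndufaf3, read 650.1 (control) and 659.0 (LPS) in WT, and 387.0 and 393.0 in LXR-DKO. It was 1.68-fold lower in LXR-DKO both without and with LPS and its LPS ratio was 0.02 (log2) in each genotype. Its dimmer probe set, at 105.6 to 156, gave smaller genotype ratios of -0.12 and -0.46, and with LPS it was lower by -0.10 in WT, against -0.44 in LXR-DKO. Its partner Ndufaf3 was at -0.03 and -0.26. Ndufaf6 read 145.8, 120.0, 94.8 and 73.1, or -0.62 and -0.72. Ndufaf8, a partner of Ndufaf5, was on the other side, with 806.4, 604.7, 1029.6 and 824.5, or 0.35 and 0.45. Ndufaf5, which modifies the core subunit Ndufs7, was at -0.49 and -0.25, Ndufaf1 at -0.15 and -0.29, and Ndufaf2 at -0.11 and 0.22. Ndufaf7, a methyltransferase, stood at 0.14 and 0.15.

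In complex III all 8 genes were lower in LXR-DKO on the deposited scale both without LPS (median -0.48) and with LPS (median -0.58); on the scale of the poly-A controls the medians were 0.47 and 0.02. The Rieske iron-sulphur protein, Uqcrfs1, which is its catalytic member here, read 2359.9 (control) and 2315.7 (LPS) in WT, and 1594.9 and 1488.7 in LXR-DKO. The genotypes did not overlap, at log2 ratios of -0.57 and -0.64. The small subunit Uqcr10 read 2310.4, 2690.9, 1495.5 and 1184.4 and was 1.54-fold lower without LPS and 2.27-fold lower with LPS. Its 2 other probe sets gave -1.26 and -1.44 without LPS, a larger difference than the -0.63 of the brightest, and -1.15 and -1.20 with LPS, close to its -1.18.

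The core proteins Uqcrc1 and Uqcrc2, which lie on the matrix side of complex III, were at -0.50 and -0.51 without LPS and at -0.36 and -0.56 with LPS. A second probe set of Uqcrc2 went the other way, at 0.35 and 0.14. Uqcrb, which lines the quinone site, and Uqcrh, the hinge protein that meets cytochrome c1, were at -0.26 and -0.32 without LPS and at -0.52 and -0.44 with LPS. Uqcrq was at -0.47 and -0.67. Uqcr11 was at -0.04 without LPS and -0.59 with it, as its signal was 1120.6 on the LXR-DKO LPS array and between 1659.9 and 1710.2 on the others.

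In complex IV the genotype medians were -0.17 without LPS and -0.49 with LPS, or 0.76 and 0.12 on the scale of the poly-A controls; without LPS the median was also above 0, at 0.06, on the scale of the hybridisation controls. Of the genes measured, 10 of 14 were below 0 without LPS and 12 of 15 with LPS. Among all genes 47.3% and 41.7% were below 0. Bright genes had medians of -0.17 and -0.23, with 61.5% and 61.9% below 0, so the complex IV median without LPS was that of bright genes. The figures for complex IV leave out Ndufa4 and Ndufa4l2, which were counted by name with complex I. Ndufa4, the subunit named for complex I, had the second lowest genotype ratio of all members: 3090.1 (control) and 2633.1 (LPS) in WT, and 925.3 and 738.4 in LXR-DKO. Both WT arrays were well above both LXR-DKO arrays, which were 3.34-fold lower without LPS and 3.57-fold lower with LPS. It has a single probe set. Its paralogue Ndufa4l2, known as a hypoxia-induced gene, was near or below 28.9 on every array, at 22.6, 34.2, 28.1 and 30.1.

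Cox7a2l, the gene of a factor linked to supercomplexes of complexes III and IV, was the only member at least 2-fold higher in LXR-DKO on the deposited scale. It read 1712.8 (control) and 1617.4 (LPS) in WT, and 4038.7 and 3896.7 in LXR-DKO. LXR-DKO was 2.36-fold higher without LPS and 2.41-fold higher with LPS, and the LPS ratios of this probe set were -0.08 in WT and -0.05 in LXR-DKO (log2). All 3 of its probe sets gave the same direction, with the others at 0.99 and 1.03 without LPS and 0.90 and 0.93 with LPS. The brightest carries a suffix for possible shared targets (_x_at), and the others carry _a_at. Cox7a2, a relative of Cox7a2l and a constitutive subunit, went the other way at -0.43 and -0.49. Cox7a1, the muscle form, was below 28.9 on both WT arrays at 26.6 and 24.7 and read 51.0 and 42.1 in LXR-DKO, that is, a genotype ratio of at least 0.82 without LPS and 0.54 with LPS (log2).

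**Figure D2:**
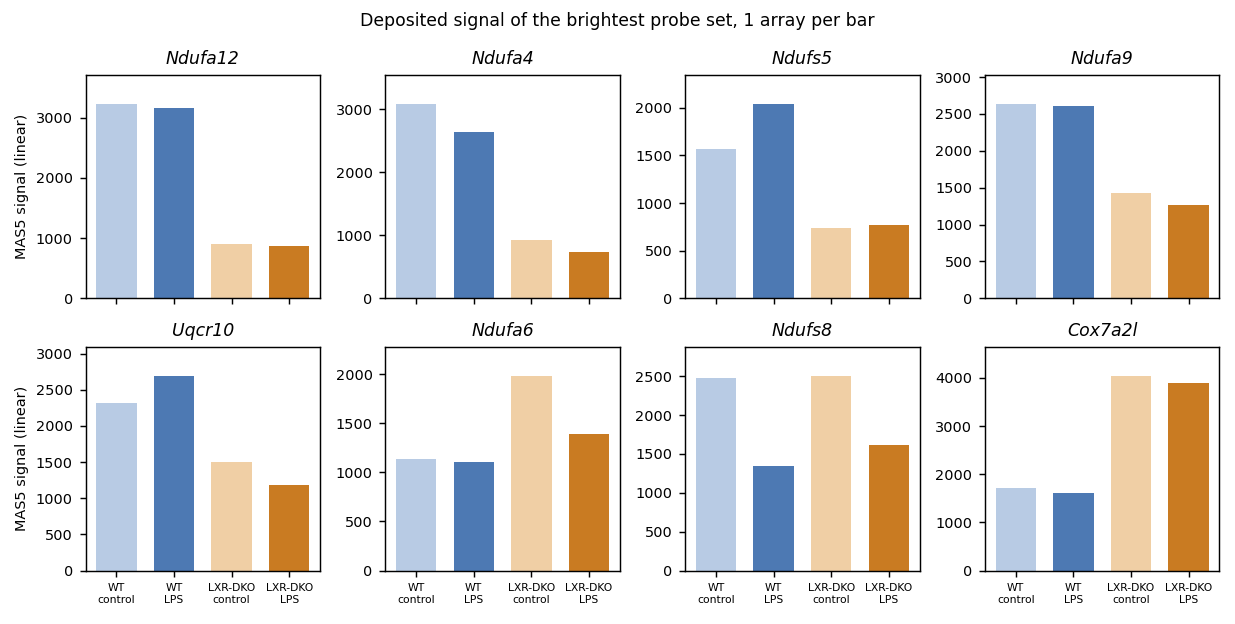
Deposited signal on a linear axis from 0, 1 bar per array, for 8 member genes: WT control, WT LPS, LXR-DKO control and LXR-DKO LPS from left to right, with no error bar as each group had 1 array. Ndufa12, Ndufa4, Ndufs5, Ndufa9 and Uqcr10 were lower on both LXR-DKO arrays, Ndufa6 and Cox7a2l higher, and Ndufs8 was lower on both LPS arrays; scaled to the poly-A controls, Ndufa9 and Uqcr10 without LPS were higher in LXR-DKO at log2 ratios of 0.07 and 0.32.

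Several subunits of complex IV exist as isoforms, 1 widely expressed and the other restricted to a tissue. Cox4i1, the regulatory subunit, read 6360.3 (control) and 6535.4 (LPS) in WT, and 5939.2 and 5454.3 in LXR-DKO. It differed little, at -0.10 and -0.26 between genotypes, while its hypoxia-responsive form Cox4i2 reached 28.9 on 2 arrays only, at 46.6 in WT LPS and 29.4 in LXR-DKO LPS. Cox6a1 was at -0.35 and -0.52, and Cox6b1 at -0.38 and -0.57. The muscle form Cox6a2, at 90.9, 103.1, 53.7 and 60.1, was lower in LXR-DKO by -0.76 and -0.78, or higher by 0.19 without LPS on the scale of the poly-A controls. The testis form Cox6b2 lay between 10.1 and 40.8.

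Cox8a was at -0.20 and -0.61, and Cox5a, Cox5b and Cox6c lay between -0.12 and -0.21 without LPS and between -0.29 and -0.49 with LPS. A second bright probe set of Cox5a, without a suffix, was at 0.07 and 0.01. For Cox5b 1 bright probe set was at 0.02 without LPS and -0.43 with LPS. The further bright probe sets of Cox5a and Cox5b were below 0. Cox8b, the muscle form, read at most 2.9. The testis form Cox8c, at 75.2, 141.0, 84.2 and 120.5, was at 0.16 and -0.23. Cox7c was dim by its probe sets of a single symbol, at 55.3, 73.7, 70.7 and 47.3, or 0.35 and -0.64, so the genotype order reversed with LPS. The 10 probe sets annotated to several symbols, of which at least 1 met the naming rule, were left out of all counts. Of these, 6 had a mean signal of at least 1000, and all 6 were lower in LXR-DKO on the deposited scale, with a median of -0.55 without LPS and -0.53 with LPS.

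Agreement among probe sets of a gene was checked in the 34 members with more than 1 probe set above 28.9 on all arrays. Without LPS all probe sets of a gene gave the same direction of the genotype ratio in 28 of them, 23 lower and 5 higher in LXR-DKO, and with LPS in 27, 25 lower and 2 higher. Over all 116 member probe sets above 28.9 on every array, 89 were below 0 without LPS and 96 with LPS, with medians of -0.33 and -0.45. The widest gaps between probe sets were 1.58 for Ndufs4 without LPS and 1.33 for Ndufa12 with LPS. These probe sets read the same RNA, so their agreement says nothing of the spread between cultures.

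**Figure D3:**
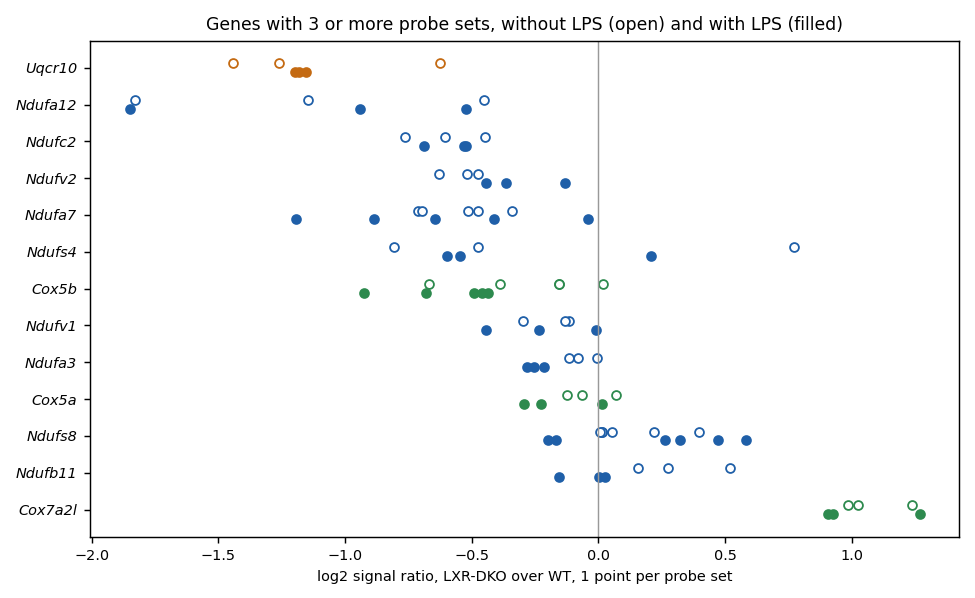
Log2 signal ratio of LXR-DKO over WT for each probe set of the genes with at least 3 probe sets at or above 28.9 on all arrays; open points are without LPS and filled points with LPS. All points of Uqcr10 and Cox7a2l lie on their own side of 0, at or beyond -0.63 and 0.90, whereas Ndufa12 spreads from -1.85 to -0.45 and Ndufs4 holds a point at 0.77; on the scale of the poly-A controls, points right of -0.95 without LPS and right of -0.60 with LPS would be above 0.

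The LPS ratios of these genes were small in both genotypes. In WT the median log2 ratio of LPS over control was 0.04 over 65 genes, with 26 below 0 and 39 above, or -0.08 and -0.03 on the scales of the hybridisation and poly-A controls. The median of all 11449 genes was -0.05, with 56.0% below 0, and that of bright genes was 0.03, with 46.5% below 0. No member was 2-fold higher or lower, against 2.93% and 4.79% of all genes. At 1.5-fold 2 were higher (Cox8c, and Cox4i2 as a lower limit) and 1 was lower (Ndufs8), against 7.33% and 12.9% of all genes. Of 62 members, 51 had a ratio no larger than the SD between probe sets, 0.28.

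In LXR-DKO the LPS median was -0.05 over 66 genes, with 44 below 0 and 22 above, or -0.48 on the scale of the poly-A controls. The median of all 11793 genes was 0.02, with 48.4% below 0, and that of bright genes was -0.02, with 52.5% below 0. Again no member was 2-fold higher or lower, against 6.23% and 1.82% of all genes, and at 1.5-fold 0 were higher and 2 lower (Ndufa10 and Ndufs8), against 13.0% and 9.10%. The ratio was no larger than the probe-set SD of 0.41 in 55 of 62 members. By complex, the WT medians were 0.02 for complex I, 0.11 for III and 0.20 for IV, and the LXR-DKO medians -0.08, -0.07 and 0.02.

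Ndufs8 was the member with the clearest difference by LPS. It read 2477.1 (control) and 1343.6 (LPS) in WT, and 2502.1 and 1610.3 in LXR-DKO. Both control arrays stood above both LPS arrays, with LPS 1.84-fold lower in WT and 1.55-fold lower in LXR-DKO. All 6 of its probe sets were lower with LPS in both genotypes, from -0.88 to -0.23 in WT and from -0.64 to -0.32 in LXR-DKO on the log2 scale. The other core genes of complex I were between -0.28 and 0.06 in WT and between -0.31 and -0.05 in LXR-DKO, so that all 6 core genes were below 0 in LXR-DKO and 5 of 6 in WT.

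Ndufa10, an accessory subunit of the membrane arm, read 1974.1 (control) and 1812.0 (LPS) in WT, and 1882.4 and 1180.7 in LXR-DKO, so that 1 array stood apart from 3 alike ones. Its LPS ratios were -0.12 in WT and -0.67 in LXR-DKO. LXR-DKO LPS was also the lowest array for Uqcr11, at -0.02 and -0.57, and for Cox8a, at -0.06 and -0.48. For Ndufa6, at -0.04 and -0.51, LXR-DKO control was the highest array. On the other side, Ndufs5 and Ndufa1 were the highest of complex I with LPS in WT, at 0.39 and 0.38, and stood at 0.04 and -0.01 in LXR-DKO. Ndufs4 and Ndufa2 were above 0 in both, at 0.37 and 0.21 in WT and at 0.25 and 0.22 in LXR-DKO.

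In complex III, Uqcrc1 read 3381.1 (control) and 2558.8 (LPS) in WT, and 2395.7 and 1994.7 in LXR-DKO, or -0.40 and -0.26 with LPS. The genotypes did not overlap in it, and LPS was lower in both. Uqcr10 was at 0.22 in WT and -0.34 in LXR-DKO by its brightest probe set, whereas its other 2 probe sets were above 0 in both genotypes, at 0.35 and 0.42 in WT and at 0.60 and 0.53 in LXR-DKO. Uqcrb and Uqcrh were at 0.21 in WT, and at -0.05 and 0.08 in LXR-DKO. In complex IV, Cox8c had the highest LPS ratios, 0.91 and 0.52, but its other probe set gave -0.33 in WT and 0.43 in LXR-DKO. The bright subunits Cox6a1, Cox6b1 and Cox7a2 were at 0.22 to 0.27 in WT and at 0.08 to 0.17 in LXR-DKO.

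**Figure D4:**
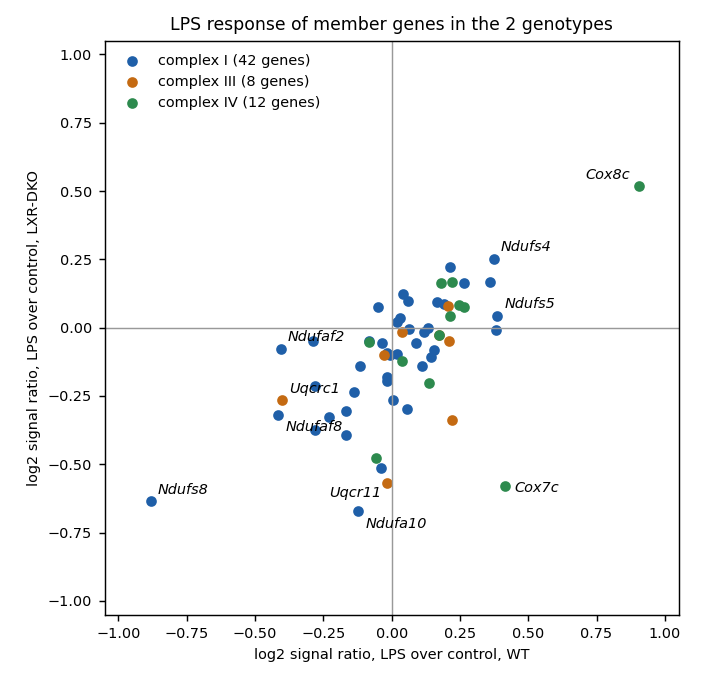
Log2 signal ratio of LPS over control in WT (horizontal) and in LXR-DKO (vertical) for the 62 member genes at or above 28.9 on all arrays, 1 point per gene, coloured by complex. Points cluster near 0 on both axes, Ndufs8 lies at the lower left with -0.88 and -0.64, Cox8c at the upper right with 0.91 and 0.52, and Cox7c at the lower right with 0.41 and -0.58; on the scale of the poly-A controls every point would lie lower by 0.08 in WT and by 0.43 in LXR-DKO.

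Of the 62 members, 24 were below 0 with LPS in both genotypes and 18 above 0 in both. Another 19 were above 0 in WT and below 0 in LXR-DKO, and 1 the reverse. The same split was not counted for all genes or bright genes, so opposed responses cannot be read from it. For 51 members the WT ratio, and for 55 the LXR-DKO ratio, did not exceed the probe-set SD. A change of array scale shifts these ratios together and can alter the split. Subtracting the log2 LPS ratio in WT from that in LXR-DKO gave a median of -0.13 over 65 members, with 50 below 0, against 0.09 over all 10764 genes measured. The share of members below 0 was 76.9%, against 41.9% of all genes and 53.9% of bright genes. The median of bright genes was -0.03. The members' median was -0.48 on the scale of the poly-A controls, -0.03 on that of the hybridisation controls, -0.07 after quantile normalization and -0.23 with arrays scaled to the same 75th percentile. No member differed 2-fold higher or lower, against 7.69% and 1.99% of all genes. At 1.5-fold 1 was higher (Cox6b2, as a lower limit) and 2 lower (Cox7c, and Cox4i2, whose control signals were both below 28.9, so that its difference is neither a value nor a limit), against 17.5% and 7.27%. All 3 were dim, with no signal above 73.7. The difference exceeded the probe-set SD of 0.43 in 5 of 62 members, and the medians by complex were -0.10 for I, -0.17 for III and -0.18 for IV.

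The rest of the oxidative machinery was compared through lists of genes set by name. Complex II feeds electrons from succinate into the chain, and all 4 of its genes were lower in LXR-DKO on the deposited scale, with medians of -0.66 without LPS and -0.96 with LPS. Its iron-sulphur subunit Sdhb read 3826.2 (control) and 4467.2 (LPS) in WT, and 1867.1 and 1635.7 in LXR-DKO, with no overlap of the genotypes. Cycs, the gene of cytochrome c, was at -0.72 and -0.88, and Cyc1, of cytochrome c1 in complex III, at -1.16 and -0.75. Of 18 genes of ATP synthase, 15 were below 0 without LPS and 17 with LPS, with medians of -0.29 and -0.41. For the mitochondrial ribosome 59 and 55 of 76 genes were below 0, with medians of -0.31 and -0.37. On the scale of the poly-A controls these list medians without LPS would all be above 0. For comparison, 47.3% of all genes were below 0 without LPS and 41.7% with LPS on the deposited scale. Bright genes had medians of -0.17 and -0.23, with 61.5% and 61.9% below 0.

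Cytosolic ribosomal proteins lay on the other side, with 34 and 36 of 41 genes above 0 and medians of 0.22 and 0.24. ND5, a subunit of complex I encoded in mitochondrial DNA, read 3211.3 (control) and 4114.4 (LPS) in WT, and 3333.5 and 4133.9 in LXR-DKO. It differed by 0.05 and 0.01 between genotypes and was higher with LPS by 0.36 in WT and 0.31 in LXR-DKO. For factors that assemble complex IV the medians were -0.37 and -0.37, with 16 and 14 of 18 genes below 0, among them Cox11, which delivers copper, at -1.14 and -0.81. The 5 measured factors for complex III had medians of -0.66 and -0.73, with 3 below 0 each time. Further assembly factors of complex I, under other names, had medians of 0.10 and 0.39 over 7 genes, with Timmdc1 at 1.06 and 1.32.

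**Figure D5:**
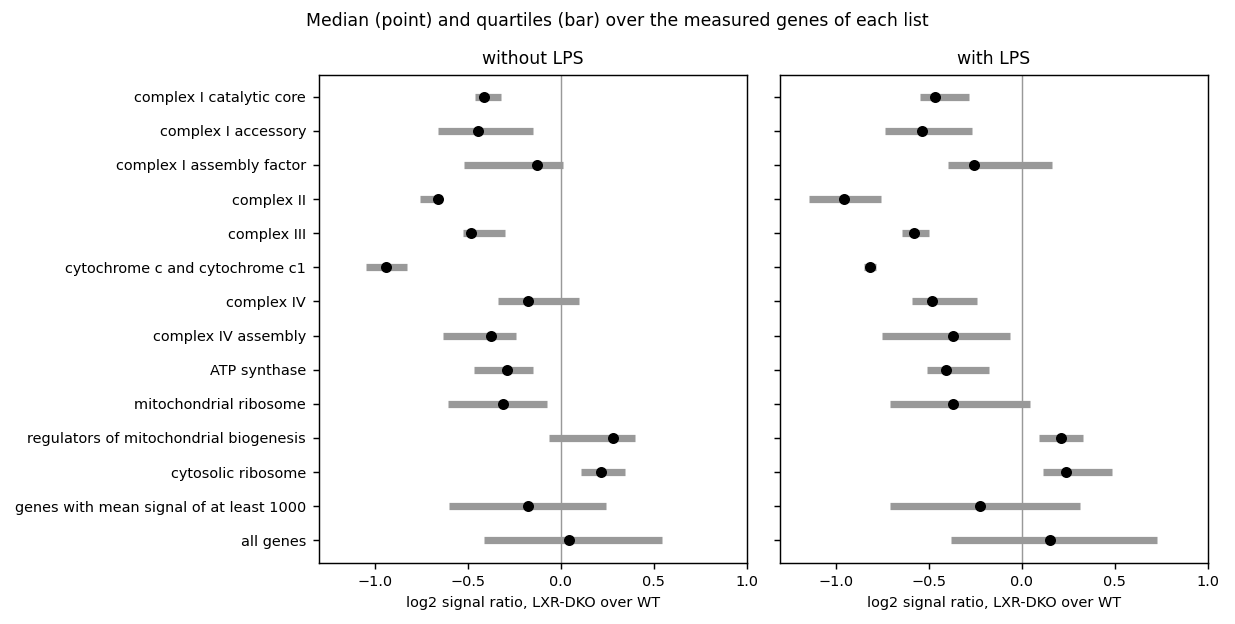
Median (point) and quartiles (bar) of the log2 signal ratio of LXR-DKO over WT over the measured genes of each list, without LPS on the left and with LPS on the right. Lists of the respiratory chain, ATP synthase and mitochondrial ribosome lie left of all genes, at 0.05 without LPS and 0.15 with LPS, and the cytosolic ribosome to the right at 0.22 and 0.24. Genes with a mean signal of at least 1000 also lie left of all genes, at -0.17 and -0.23. The scale of the poly-A controls would move every point right by 0.95 and 0.60.

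Of the regulators of mitochondrial biogenesis, 8 of 13 were above 0 without LPS and 12 of 14 with LPS, with medians of 0.28 and 0.21, against 52.6% and 58.2% of all genes above 0. Ppargc1b, a coactivator of respiratory genes, was the lowest of them at 228.8 (control) and 307.2 (LPS) in WT, and 106.9 and 78.6 in LXR-DKO. It was thus higher with LPS in WT and lower with LPS in LXR-DKO, with a genotype ratio of -1.10 without LPS and -1.97 with LPS. Gabpa, a subunit of GABP, was higher in LXR-DKO by 0.85 and 0.84, while Nrf1 was at -0.06 and 0.20 and Esrra at 0.28 and 0.10. Of 8 genes linked to hypoxia, 5 were below 0 without LPS and 6 with LPS, with medians of -0.04 and -0.20, and with the glucose transporter Slc2a1 at -1.31 and -1.26 and Vegfa at 1.18 and 2.27. Of 4 genes that handle mitochondrial superoxide and peroxide, 3 were below 0 each time, and Sod2, the matrix superoxide dismutase, was higher with LPS by 1.76 in WT and 1.81 in LXR-DKO.

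Markers of other cells also differed by genotype. Of 8 neutrophil markers, 6 on control arrays and 7 on LPS arrays exceeded WT at least 2-fold in LXR-DKO, and their summed signal was 9740.2 and 11680.9 in WT against 21284.8 and 20412.7 in LXR-DKO. Most of the WT sums came from Mmp8, the 1 marker at least 2-fold lower in LXR-DKO, at 7882 (control) and 9716.4 (LPS) in WT and 3829.7 and 3769.1 in LXR-DKO; S100a9 read 106.4 and 24.8 in WT and 5734.3 and 5366.3 in LXR-DKO. The summed signal of 11 DC markers was 23139.6 and 21450.8 in WT against 41886.7 and 45749.3 in LXR-DKO, with 6 of 10 and 8 of 11 at least 2-fold higher, and that of 7 macrophage markers was 19640.1 and 25858.9 against 32937.7 and 23755.9. The macrophage markers went both ways, with 3 at least 2-fold higher and 1 lower on control and on LPS arrays. The complement genes C1qa, C1qb and C1qc read at most 108.4 in WT and at least 2566.9 in LXR-DKO, whereas Cd68 read 7043.9 (control) and 8902.7 (LPS) in WT and 2836.3 and 2139.2 in LXR-DKO. Markers of mast cells, basophils and eosinophils summed to 396.3 and 218.6 in WT and to 1395.6 and 1971.0 in LXR-DKO over 6 genes, and 4 B cell markers to 88.4 and 71.6 in WT and to 491.5 and 1707.1 in LXR-DKO, with 3 of the 4 below 28.9 on each WT array. Markers of T and NK cells summed to at most 60.1 over 3 genes, and both erythroid markers were below 28.9 on all arrays. The part of these cells in the lower respiratory chain signals was not tested, nor was that of the control probe sets, which were lower on the same arrays.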

How the data were processed

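Signals of 4 single-colour oligonucleotide arrays were analysed, 1 per group. Per the submitters' processing notes the authors computed them with MAS5, whose version is not given in the sources used here. The deposited values are intensity on a linear scale, 1 per probe set, already brought by the authors to a common trimmed mean of 200.0; per the labels' protocols, cRNA was made with a 2-cycle kit. Both the amplification and the common mean bear on ratios between arrays. The genome build behind the annotation is not given in the sources used here, and precision is limited by the small number of arrays.

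Of 45101 probe sets, 64 were controls. Of the other 45037, 34945 had 1 gene symbol in the platform annotation, 932 had several and 9160 were not listed; the latter 2 kinds were not named. All 69 member genes matched the RefSeq table by gene number, with 0 symbols altered. Signals were kept as deposited, with a floor of 28.9 (the pooled median); lower signals were set to it. A gene is given by its probe set of highest mean signal, and counted as measured where at least 1 array of a comparison reached the floor. The 5 comparisons were LPS over control in each genotype, genotype (LXR-DKO over WT) on control arrays and on LPS arrays, and the log2 LPS ratio of LXR-DKO minus that of WT. Limits of 2-fold and 1.5-fold were counted, and no p-value was computed. The spread between probe sets is the SD of log2 ratios among probe sets of a gene that reached the floor on every array.

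Members and lists were chosen with earlier results of these data known. Members named with values were those at least 2-fold different, the 2 highest and 2 lowest per complex and comparison, the catalytic subunits, the isoform sets, the assembly factors and members whose probe sets opposed each other by a log2 ratio of 1 or more; further members, and up to 3 genes of other lists, were named for contrast after their values were seen. Alternatives were quantile normalization, scaling to the 75th percentile, centred ratios, floors at the 25th percentile (8.8) and the 75th percentile (177.4), an offset of 16 in place of a floor, the median over probe sets, and probe sets without a suffix; scaling to hybridisation or poly-A controls was added after seeing the data. Counting was tested on simulated data. Python 3.11.15, numpy 2.4.6, pandas 2.3.3, scipy 1.17.1 and matplotlib 3.10.9 were used.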

Additional observations from a re-analysis of the deposited data

Results flagged for a closer look

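Cox7c, a nuclear-encoded subunit of complex IV, had LPS responses of opposite direction in the genotypes: the log2 ratio of LPS over control was 0.41 in WT and -0.58 in LXR-DKO, each larger than the SD between probe sets of a gene, 0.28 and 0.41. Its signals were 55.3, 73.7, 70.7 and 47.3 in WT control, WT LPS, LXR-DKO control and LXR-DKO LPS, by a probe set with the suffix for shared targets. The other Cox7c probe set of a single symbol, at 25.7, 18.4, 29.1 and 22.8, did not show the opposite directions. Its LPS ratio was not measured in WT and was at least -0.01 in size in LXR-DKO. The finding thus rests on 1 dim probe set, and the difference was not tested.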

How the results depend on the processing

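With 1 array per group no value has a replicate error, and signals near 28.9 give ratios set by the dimmest probes. No paired analysis was possible because each group had 1 array. The largest dependence was on the scale of the arrays. Scaled to the poly-A controls, the members' median genotype ratio (log2) was 0.57 on control arrays and 0.094 on LPS arrays, and by complex 0.53 and 0.10 for I, 0.47 and 0.024 for III, and 0.76 and 0.12 for IV. Members at least 2-fold higher in LXR-DKO then numbered 11 without and 2 with LPS, and those lower 0 and 2; LPS in LXR-DKO had medians of -0.48 in all, -0.50 for I, -0.50 for III and -0.39 for IV with 3 members 2-fold lower; LPS in WT had -0.035 in all and -0.067 for I; and 1 member had a response 2-fold lower in LXR-DKO. On that scale Cox6a2 (0.19), Ndufa9 (0.066), Ndufaf4 (0.20), Ndufaf6 (0.33) and Uqcr10 (0.32) without LPS, and Ndufs4 (0.0038) and Uqcr11 (0.0091) with LPS, were above 0 in LXR-DKO over WT. Scaled to the hybridisation controls, complex IV without LPS was at 0.055, with 2 members 2-fold higher, 3 were 2-fold lower with LPS, and LPS in WT had medians of -0.077 in all, -0.10 for I and -0.013 for III with 1 member 2-fold lower. On that scale the members' genotype medians were -0.13 without and -0.19 with LPS, and the median difference of responses was -0.03, against -0.48 on the poly-A scale. Above the floor each scaling adds 1 constant to all ratios of a comparison, set by the difference of its controls between those arrays.

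Scaled to the 75th percentile, 5 members without LPS and 15 with LPS were 2-fold lower in LXR-DKO and 0 were higher with LPS; 1 was 2-fold higher with LPS in WT, and 1 had a response 2-fold lower in LXR-DKO. Quantile normalization put LPS in WT at -0.0017 in all, -0.026 for complex I and -0.026 for III, with 1 member 2-fold higher, and gave 1 response 2-fold lower, as did centring. With probe sets without a suffix, complex III was at 0.25 for LPS in LXR-DKO and 0.0089 for the difference of responses, 0 members were 2-fold higher in LXR-DKO without or with LPS, and Ndufa12 (0.26) and Uqcrq (0.31) with LPS were above 0, in both cases through a probe set near 28.9. With the 75th percentile as floor, complex IV had -0.028 for LPS in LXR-DKO. With the 25th percentile as floor, 1 member was 2-fold higher and 1 lower with LPS in WT, 2 were higher in LXR-DKO with LPS and 1 had a higher response; without a floor these last counts were also 2 and 1. The median over probe sets left 0 members 2-fold higher in LXR-DKO with LPS. At 1.5-fold the counts, higher and lower, were 2 and 1 for LPS in WT, 2 lower for LPS in LXR-DKO, 3 and 14 for genotype without LPS, 25 lower with LPS, and 1 and 2 for the difference. The cause of the dependence on floor and probe set was not tested. In all, 252 medians and counts kept their direction and moved little. Little means less than the probe-set SD of their comparison (0.28 to 0.53), or for counts at most 1.5 times. Another 37 moved further and 21 were reversed. Of single genes 1900 values moved by less than that SD, 145 moved by at least it and 9 were reversed. Direction was compared only for genes at least 1.5-fold different.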
